A study of Homo sapiens with 10 samples.

Results

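The glucose-sensing transcription factors of the MLX network and the alpha-arrestin genes around them comprised 7 genes: MLXIP, MLXIPL, MLX, TXNIP, ARRDC4, ARRDC3 and ARRDC2. They were taken by gene symbol from the array annotation, and each had 1 probe set, which gave 7 of the 17492 named genes and 7 of 18569 probe sets. The RNA came from A375, an established human skin melanoma line, on Clariom S arrays. In one group, 5 samples were plated with doxycycline at 2 µg/ml and frozen on day 4. The other group was 5 control samples frozen on the same day without the drug. The series title names Omomyc, a dominant-negative mutant of the MYC dimerisation domain. The labels do not describe the construct or say how many clones were used, and no array analysed here came from doxycycline-treated cells without Omomyc, so an effect of the drug and one of Omomyc cannot be told apart.

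MLXIP, also called MondoA, and MLXIPL, also called ChREBP, are basic helix-loop-helix factors that respond to glucose 6-phosphate. Each pairs with MLX, enters the nucleus and binds carbohydrate response elements, which are built from a pair of E-box-like cores. TXNIP and ARRDC4 are the best known targets of MondoA. TXNIP binds thioredoxin and lowers glucose uptake by driving glucose carriers off the cell surface, and it belongs with the ARRDC proteins to the alpha-arrestins, adaptors that bring ubiquitin ligases of the NEDD4 family to membrane cargo.

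The promoters of TXNIP, ARRDC4 and ARRDC3 are shown because these genes are the classical pair of targets and the alpha-arrestin with the opposite change. Each sequence is the 250 bases before the first listed transcription start, from RefSeq (GRCh38.p14), written along the strand of the gene. Capitals mark matches, on either strand, to 3 motifs: the canonical E-box CACGTG, a pair of CACGNG cores with 5 bases between them, and the CCAAT box. Both cores of the pair had to read in the same direction, and pairs in opposite directions were not searched.
TXNIP, chr1:145996580-145996829, minus strand: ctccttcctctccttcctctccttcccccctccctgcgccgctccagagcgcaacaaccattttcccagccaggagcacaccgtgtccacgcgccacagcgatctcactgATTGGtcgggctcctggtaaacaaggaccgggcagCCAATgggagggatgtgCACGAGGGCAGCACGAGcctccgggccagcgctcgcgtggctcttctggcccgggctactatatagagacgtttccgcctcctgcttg
ARRDC4, chr15:97960453-97960702, plus strand: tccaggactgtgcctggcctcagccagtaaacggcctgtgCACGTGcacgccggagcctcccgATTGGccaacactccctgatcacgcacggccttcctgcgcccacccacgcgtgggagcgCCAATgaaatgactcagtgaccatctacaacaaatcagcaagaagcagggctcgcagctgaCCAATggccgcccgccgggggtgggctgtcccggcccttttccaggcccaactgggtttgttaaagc
ARRDC3, chr5:91383318-91383567, minus strand: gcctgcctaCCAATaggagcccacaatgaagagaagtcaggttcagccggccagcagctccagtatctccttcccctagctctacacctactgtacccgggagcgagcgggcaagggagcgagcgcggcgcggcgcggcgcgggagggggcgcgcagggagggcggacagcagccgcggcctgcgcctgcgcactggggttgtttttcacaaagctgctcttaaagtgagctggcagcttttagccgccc

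The pair of cores occurred in the TXNIP promoter as CACGAGGGCAGCACGAG, from 88 to 72 bases before the start, with CCAAT boxes beginning 140 and 105 bases before it. Of 35116 promoter windows of this length, 16 held the pair (0.0456%), 11240 held a CCAAT box (32.0%) and 2228 held the canonical E-box (6.34%). The ARRDC4 window had no match to the pair, 1 canonical E-box beginning 210 bases before the start and 3 CCAAT boxes. MLX had 1 canonical E-box beginning 50 bases before its start. ARRDC3 had a single CCAAT box at the far end of its first window, 241 bases out. All 7 genes had a promoter in the table, and TXNIP, ARRDC3 and ARRDC2 had 2 each. The second windows of TXNIP and ARRDC3 held none of these letters. A match describes the sequence and shows no binding.

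**Figure D1:**
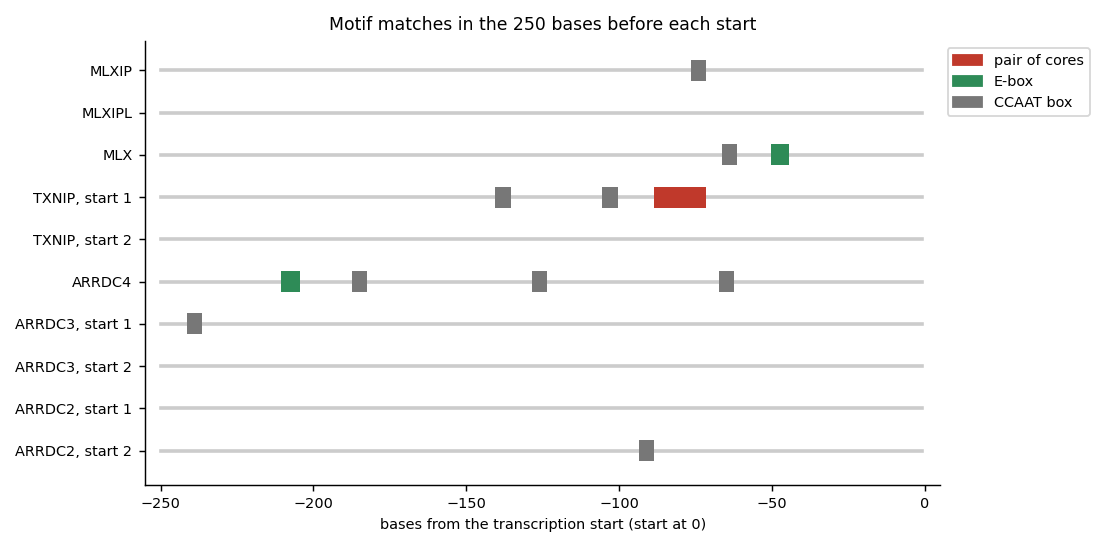
Matches to the pair of cores, the E-box and the CCAAT box in the 250 bases before each of the 10 listed starts of the 7 genes. The horizontal axis is the distance in bases from the start and each bar is 1 match on either strand. The pair of cores appears in the first TXNIP window and in no other.

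TXNIP was far lower with doxycycline while ARRDC3 was higher, and the glucose sensors themselves moved less. TXNIP signal was 9.09-fold lower, ARRDC2 1.59-fold lower and MLXIP 1.47-fold lower, whereas ARRDC3 was 3.60-fold higher. ARRDC4, MLX and MLXIPL differed by 1.22-fold, 1.04-fold and 1.09-fold, with groups that overlapped. These genes were chosen by role with the doxycycline minus control difference of these same arrays already known, so their values are given as a description and no test is attached to any of them. In the fit of limma across all probe sets, 4 of the 7 passed an adjusted p of 0.05, 1 higher and 3 lower, beside 38.1% of all probe sets called in either direction (20.9% higher and 17.2% lower), and nothing is read from that count. The groups did not overlap for 3 of the 7, TXNIP, ARRDC3 and ARRDC2, beside 28.6% of all probe sets (14.9% higher and 13.6% lower).

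**Figure D2:**
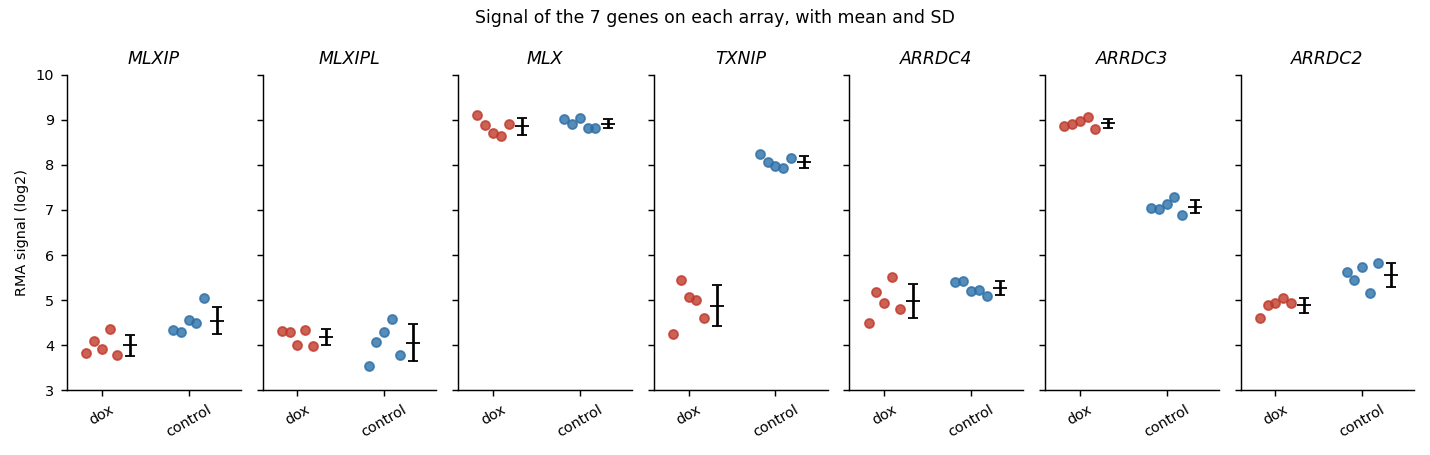
RMA signal in log2 units of the 7 genes on each of the 10 arrays, doxycycline in red and control in blue, with the mean and SD of 5 arrays in black. TXNIP lay between 4.26 and 5.45 on doxycycline arrays and between 7.92 and 8.24 on control arrays, and ARRDC3 between 8.79 and 9.06 against 6.88 and 7.28.

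Values are RMA signals in log2 units, where a step of 1 is a doubling, and fold changes are doxycycline minus control ± the moderated SE of limma. The signals belong to different probe sets, so genes are not ranked against each other by level. In cultured cells measured in bulk, fewer cells that hold a transcript and less of it per cell cannot be told apart.

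MLXIP, the glucose sensor found in most tissues and in muscle above all, gave 3.83, 4.09, 3.91, 4.37 and 3.79 on the doxycycline arrays 1 to 5, against 4.35, 4.29, 4.57, 4.49 and 5.05 on the control arrays. The groups overlapped by a small margin, since doxycycline array 4 stood above control arrays 1 and 2. The means were 4.00 ± 0.24 and 4.55 ± 0.30 (SD, n = 5 each), a difference of -0.55 ± 0.14. Signals of MLXIP sat between the 37.1 and 43.4 percentiles of all probe sets on doxycycline arrays and between the 42.7 and 49.5 percentiles on control arrays, in the dimmer part of the range.

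MLXIPL, the sensor of liver and fat that drives lipid synthesis genes, gave 4.31, 4.29, 4.00, 4.35 and 3.99 with doxycycline and 3.54, 4.08, 4.29, 4.59 and 3.78 in control. Every doxycycline value lay inside the control range. The difference was 0.13 ± 0.16, smaller than its error.

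MLX, the common partner that both sensors need to bind DNA, gave 9.11, 8.89, 8.70, 8.63 and 8.91 with doxycycline and 9.00, 8.90, 9.04, 8.81 and 8.81 in control. It was a bright probe set, above the 91.0 percentile on every array. The groups overlapped almost fully, and the difference was -0.06 ± 0.10.

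TXNIP gave 4.26, 5.45, 5.08, 5.01 and 4.61 on the doxycycline arrays, against 8.24, 8.05, 7.97, 7.92 and 8.14 on the control arrays. All doxycycline values were far below all control values, with a gap of more than 2 log2 units between the nearest arrays. The means were 4.88 ± 0.46 and 8.06 ± 0.13 (SD, n = 5 each), and the difference of -3.18 ± 0.17 ranked number 14 from the lowest of all 18569 probe sets. Among the arrays, TXNIP was more variable with doxycycline, where array 1 was lowest and array 2 highest, than in control.

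ARRDC4, the alpha-arrestin most similar in regulation to TXNIP in published work, gave 4.50, 5.18, 4.93, 5.51 and 4.81 with doxycycline and 5.41, 5.42, 5.20, 5.23 and 5.08 in control. Doxycycline arrays 2 and 4 lay inside or above the control range, and arrays 1, 3 and 5 below it. The means were 4.98 ± 0.38 and 5.27 ± 0.15 (SD, n = 5 each), a difference of -0.29 ± 0.15, which was -0.42 without doxycycline array 4 and -0.16 without doxycycline array 1. Doxycycline array 1 was the lowest array for ARRDC4, as it was for TXNIP and ARRDC2.

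ARRDC3, an adaptor for ubiquitination of membrane receptors and integrin beta 4, gave 8.86, 8.90, 8.98, 9.06 and 8.79 with doxycycline and 7.04, 7.02, 7.13, 7.28 and 6.88 in control. Every doxycycline array exceeded every control array and the arrays of each group lay close together. The means were 8.92 ± 0.10 and 7.07 ± 0.15 (SD, n = 5 each), and the difference of 1.85 ± 0.09 ranked number 64 from the highest of all probe sets. RefSeq places the start of ARRDC3-AS1 on the opposite strand within ARRDC3.

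ARRDC2, a less studied alpha-arrestin, gave 4.59, 4.89, 4.94, 5.06 and 4.94 with doxycycline and 5.62, 5.45, 5.74, 5.16 and 5.82 in control. The groups were separate but close, since doxycycline array 4 at 5.06 stood just under control array 4 at 5.16. The difference was -0.67 ± 0.12.

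The genes with the most similar profile were found for TXNIP, ARRDC3 and ARRDC2, whose groups did not overlap. Each profile was centred on its own mean, and the measure was the root mean square difference over the 10 arrays. Closest to TXNIP was EEF1A2, a translation elongation factor, at 0.19 log2 units, followed by the folate carrier SLC19A1 at 0.28 and by MANEAL at 0.32. EEF1A2 averaged 3.78 with doxycycline and 6.92 in control. ARRDC3 was matched by BST1, an ectoenzyme that consumes NAD, at 0.07 log2 units, then by VAT1L at 0.12 and the antiviral gene IFIT2 at 0.13. For ARRDC2 the closest were NUDCD2 (0.07), ZC3HAV1L (0.09) and the protease ADAMTS16 (0.10), which lay under the first quartile on 8 of the 10 arrays. These are descriptions of 10 arrays in 2 groups, and the likeness rests mostly on the difference between the groups.

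**Figure D3:**
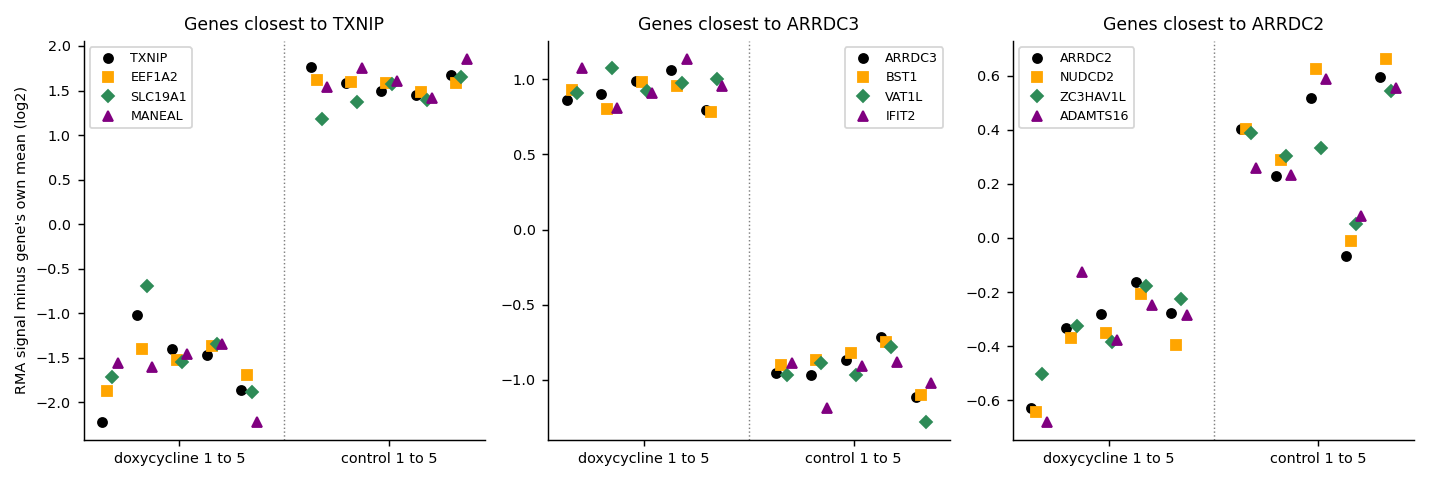
RMA signal minus the gene's own mean over 10 arrays, in log2 units, for TXNIP, ARRDC3 and ARRDC2 and the 3 genes closest to each. Within a panel, points from left to right are doxycycline arrays 1 to 5 and control arrays 1 to 5, and replicates have no order. In each panel the doxycycline points of all 4 genes lie on one side of their control points, and the TXNIP panel spreads most, with doxycycline.

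Genes that act with the sensors and the arrestins were then counted in 10 lists that held 110 different measured genes besides the 7. Doxycycline raised 17 of these and lowered 29, or 41.8% in all, by the limma fit at an adjusted p of 0.05, against the 38.1% of all probe sets. The median log2 fold change of all probe sets was 0.04, which is the value each list median is set beside. The arrays showed SOX10 and S100B, genes of the melanocyte lineage, at 8.91 and 7.84 with doxycycline and 8.71 and 7.58 in control. MITF, the master factor of the lineage, was 8.33 with doxycycline and 7.12 in control, at 1.21 ± 0.08 (limma adjusted p = 8.34e-09), and PAX3, a factor upstream of it, was 6.72 with doxycycline and 5.84 in control, at 0.88 ± 0.12 (limma adjusted p = 3.43e-05), both with no overlap of the groups. SOX10 did not pass the threshold. The pigment genes TYR, TYRP1, PMEL, MLANA and GPR143 lay under 2.80, the lowest first quartile of any array, in both groups. Of the 9 measured lineage genes 4 were higher with doxycycline (44.4%, beside 20.9% of all probe sets) and none was lower. One of the 4 was TYR, at 2.05 with doxycycline and 1.83 in control, a level under the first quartile on all 10 arrays.

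**Figure D4:**
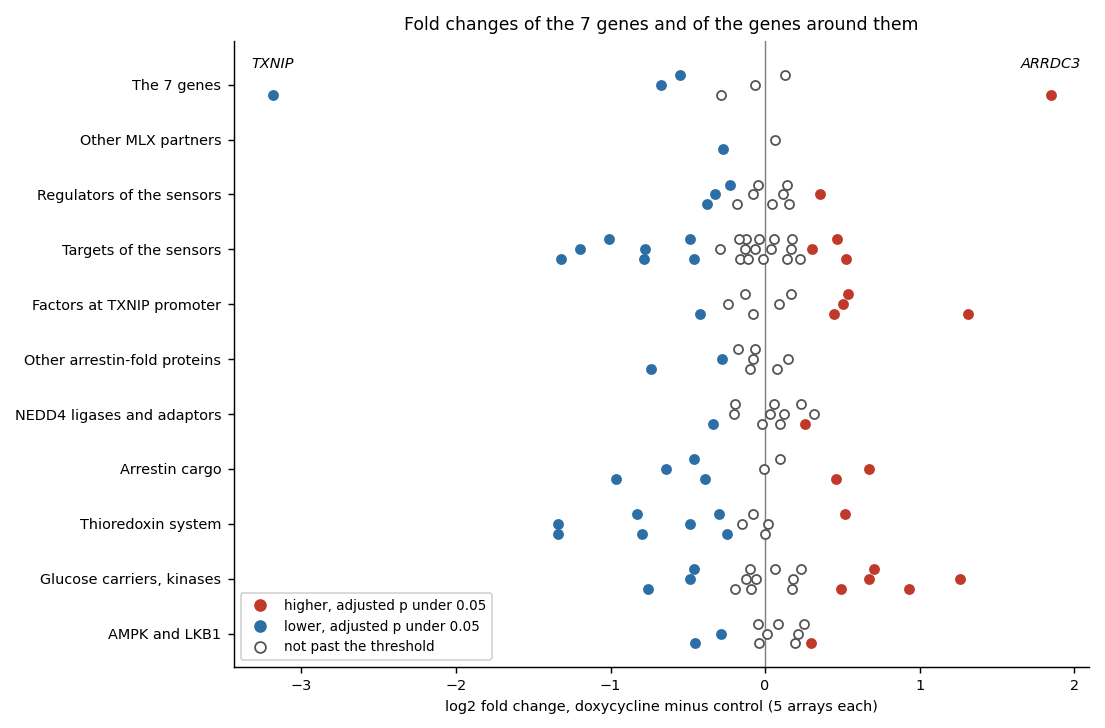
Log2 fold change of doxycycline over control (5 arrays each) for the 7 genes and for each measured gene of the 10 lists, 1 point per gene, with higher genes in red, lower genes in blue and genes not past the threshold open. TXNIP at -3.18 and ARRDC3 at 1.85 lie outside the range of every listed gene.

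Among the 13 partners and regulators of the sensors, 1 gene was called higher and 4 lower, or 38.5% in all, beside 38.1% of all probe sets. MLX also pairs with MNT and MXD1, repressors that oppose MYC. MNT differed by 0.07 ± 0.10, and MXD1 fell by 0.27 on the log2 scale (limma adjusted p = 0.0371), a call lost under 7 of 17 alternatives, among them leaving out control array 2 or 5 or doxycycline array 1, 3 or 4, with adjusted p values up to 0.0964. Of 11 regulators of the sensors, which included the 14-3-3 proteins that hold them in the cytoplasm, 1 rose and 3 fell, with a list median of -0.04. OGT, which adds N-acetylglucosamine to ChREBP, averaged 9.55 ± 0.06 with doxycycline and 9.87 ± 0.16 in control (SD, n = 5 each; limma adjusted p = 0.00911). HCFC1, a chromatin cofactor that binds ChREBP, rose by 0.36 ± 0.10 (limma adjusted p = 0.00889). The nuclear exporter XPO1 was lower, at -0.38 ± 0.10 (limma adjusted p = 0.00842). The 14-3-3 gene YWHAH was also called lower, at -0.23 ± 0.08 (limma adjusted p = 0.0342), but not under 9 of 17 alternatives, among them leaving out control array 2, 3 or 4 or any doxycycline array but the first.

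Of 25 measured targets of the sensors, without TXNIP and ARRDC4, 7 fell (28.0%), 3 rose (12.0%) and 15 did not pass, with a list median of -0.11. The share called in all, 40.0%, was close to the 38.1% of all probe sets, of which 17.2% were lower and 20.9% higher, and the difference in direction was not tested. KLF10, an early response repressor that MondoA and ChREBP both induce, gave 6.12, 6.09, 6.25, 6.12 and 6.20 with doxycycline and 7.29, 7.41, 7.35, 7.30 and 7.42 in control. Every doxycycline array was lower than every control array, and KLF10 was 2.30-fold lower (limma adjusted p = 7.17e-09). The lipid synthesis genes FASN, which makes palmitate, and ELOVL6, which lengthens it, fell by 1.32 and 1.01 on the log2 scale. The pentose phosphate enzyme TKT was lower as well, at -0.78 ± 0.08. The targets that rose were PFKFB3, the enzyme that makes fructose 2,6-bisphosphate (0.52 ± 0.09), the mitochondrial acetyl-CoA carboxylase ACACB (0.47 ± 0.09) and the lipid droplet lipase PNPLA3 (0.31 ± 0.11). PNPLA3 was near the threshold (limma adjusted p = 0.0344), and its groups overlapped. Only 2 targets were called higher with a replicate block or array weights. The same held without control array 1, 2 or 4 or any doxycycline array but the first. Of the other lipid synthesis genes, the acetyl-CoA carboxylase ACACA was lower, at -0.78 ± 0.10 (limma adjusted p = 2.65e-05), with no overlap of the groups. The desaturase SCD differed by -0.07 and the citrate lyase ACLY by -0.16, and neither passed. These lipid genes also answer to sterol regulatory factors, and 6 of the 25 targets lay under the lowest first quartile in both groups, most of them genes of liver.

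Factors described at the TXNIP promoter rose in 4 of 10 cases (40.0%) and fell in 1, beside 20.9% and 17.2% of all probe sets, with a list median of 0.13. Without control array 4, 2 of them were lower. FOXO1, a forkhead factor held out of the nucleus by insulin signalling, gave 6.74, 6.66, 6.63, 6.93 and 6.75 with doxycycline and 5.52, 5.48, 5.38, 5.23 and 5.53 in control. The groups were well apart, and FOXO1 was 2.48-fold higher (limma adjusted p = 1.85e-08). USF1, an E-box binder, rose by 0.53 ± 0.10, FOXO4 by 0.51 ± 0.12 and NFYA, a subunit of the CCAAT-binding complex, by 0.45 ± 0.10. The gene that fell was USF2, the partner of USF1, at -0.42 ± 0.09.

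Besides TXNIP, 14 measured genes had the pair of cores in a promoter window. Doxycycline lowered 5 of them, raised 3 and left 6 without a call, beside 17.2% lower and 20.9% higher of all probe sets. RAN, the GTPase of nuclear transport, was 7.47 ± 0.13 with doxycycline and 9.24 ± 0.09 in control (SD, n = 5 each; limma adjusted p = 7.79e-10). GFPT1, the enzyme that diverts fructose 6-phosphate into hexosamine synthesis, was lower at -0.53 ± 0.08, and so were MTHFS (-0.76 ± 0.12), ATP5ME (-0.55 ± 0.10) and MYL5 (-0.43 ± 0.11). The higher ones were RCN3 (0.75 ± 0.14), P4HA1 (0.33 ± 0.09) and STX12 (0.26 ± 0.08). These genes are listed by sequence and were named after their values were seen.

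Of 8 other arrestin-fold genes, 2 fell and none rose (25% called, beside 38.1% of all probe sets), with a list median of -0.09. ARRB1, a beta-arrestin that desensitises G protein-coupled receptors, was 1.67-fold lower, with 5.93 ± 0.13 in doxycycline and 6.67 ± 0.12 in control (SD, n = 5 each; limma adjusted p = 1.02e-05). VPS26C, a sorting protein of endosomes, fell by 0.28 on the log2 scale (limma adjusted p = 0.0380), a call lost under 7 of 17 alternatives, among them leaving out control array 1, 2 or 3 or doxycycline array 1, 3 or 4. ARRDC1, the alpha-arrestin that buds vesicles from the plasma membrane, differed by -0.07 ± 0.10. Among 11 genes of NEDD4 ligases, which alpha-arrestins recruit, and their adaptors, 1 rose and 1 fell (18.2% called): SMURF1 at 0.26 ± 0.08 (limma adjusted p = 0.0188) and SMURF2 at -0.34 ± 0.08 (limma adjusted p = 0.00374). The list median was 0.06. This count rested on doxycycline array 1, since 4 of the 11 were called without it, 3 of them higher, and 4 with array weights. The ligase ITCH, named with WWP1 after the values were seen, gave 7.74, 8.60, 8.61, 8.60 and 8.62 with doxycycline and 8.28, 8.09, 8.08, 8.15 and 7.98 in control. Doxycycline array 1 was below every control array while the other doxycycline arrays were above them all. ITCH differed by 0.32 ± 0.15 (limma adjusted p = 0.119) on all arrays. Without doxycycline array 1 the difference was 0.49 ± 0.08. That array was singled out because it stood apart, so no p-value is read from its removal. Leaving out any other array gave limma adjusted p values from 0.110 to 0.227. WWP1, a related ligase, differed by 0.23 ± 0.10 (limma adjusted p = 0.0861), and by 0.29 ± 0.09 without doxycycline array 1. Leaving out any other array gave WWP1 limma adjusted p values from 0.0862 to 0.216.

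Reported cargo of these adaptors moved in both directions, with 4 of 8 lower and 2 higher (75.0% called, beside 38.1% of all probe sets) and a list median of -0.20. Among probe sets above the median signal, 1 was higher. The arrays measure RNA of the cargo genes, and the removal of cargo protein by the adaptors was not measured. ITGB4, the integrin subunit that ARRDC3 sends for degradation, gave 6.33, 6.02, 6.02, 5.91 and 6.23 with doxycycline and 6.85, 7.16, 7.08, 6.84 and 7.40 in control. The groups did not overlap, and ITGB4 was 1.95-fold lower (limma adjusted p = 9.78e-06). The insulin receptor gene INSR fell by 0.64 on the log2 scale, and SLC2A1, which encodes the glucose carrier GLUT1 that TXNIP removes from the surface, by 0.46. SLC2A4, the insulin-responsive carrier GLUT4, was called higher at 0.67 ± 0.10 although its signal was dim, at 3.20 ± 0.21 with doxycycline and 2.53 ± 0.10 in control (SD, n = 5 each).

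Of 17 measured genes for carriers, hexokinases and glucose 6-phosphatases, 5 rose (29.4%) and 3 fell (17.6%). Of all probe sets, 20.9% were higher and 17.2% lower, and the list median was 0.06. Among the 8 listed genes above the median signal, 3 were higher and 3 lower. SLC2A13, a carrier of myo-inositol, rose 2.40-fold (limma adjusted p = 1.11e-06) and SLC2A3, the high-affinity glucose carrier GLUT3, 1.91-fold (limma adjusted p = 2.79e-07). SLC2A3 ranged from 9.13 to 9.38 on the doxycycline arrays and from 8.21 to 8.41 on the control arrays. SLC2A6, a carrier of lysosomes, rose by 0.70 ± 0.10, and SLC37A4, the glucose 6-phosphate carrier of the endoplasmic reticulum, fell by 0.75 on the log2 scale. Of 10 genes of AMPK, the kinase that marks TXNIP for degradation, and its activator LKB1, 1 rose and 2 fell (30% called), with a list median of 0.05, and 2 were higher without control array 4. The catalytic subunit PRKAA1 rose by 0.30 ± 0.08, the other catalytic subunit PRKAA2 fell by 0.29 and the beta subunit PRKAB2 by 0.45 on the log2 scale.

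The next list held 12 measured genes, those of the thioredoxin system with MAP3K5, NLRP3 and DDIT4, which are linked to thioredoxin or TXNIP. Of the 12, 7 fell (58.3%) and 1 rose, beside 17.2% and 20.9% of all probe sets, with a list median of -0.27. With a replicate block 6 were called lower. Without control array 1 or doxycycline array 2, 6 of the 12 were called in either direction, against 8 with all arrays. TXN, thioredoxin itself, gave 9.23, 8.82, 9.09, 8.97 and 8.90 with doxycycline and 10.37, 10.29, 10.49, 10.26 and 10.31 in control. No doxycycline array reached the control arrays, and TXN was 2.54-fold lower (limma adjusted p = 2.12e-08). Its reductase TXNRD1 fell by 0.80 and the peroxiredoxin PRDX4 by 0.83 on the log2 scale. TXNRD3, another reductase, fell by 1.34 on that scale, to 1.82 ± 0.19 with doxycycline against 3.16 ± 0.32 in control (SD, n = 5 each). Its doxycycline signal lay below the first quartile of each array, where RMA signals are close to background, which compresses differences. The gene that rose was MAP3K5, the stress kinase ASK1 that thioredoxin holds inactive, by 0.52 ± 0.10 (limma adjusted p = 9.07e-04).

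Marker genes of other cell types were mostly dim but not uniformly so. Of 6 fibroblast markers, 5 were higher with doxycycline (83.3%, beside 20.9% of all probe sets), led by PDGFRA at 1.64 ± 0.14, and the mean signal over the 6 ranged from 4.70 to 4.84 on doxycycline arrays and from 3.77 to 4.00 on control arrays. No marker was at 0, which RMA does not give. Of the other lists, 1 of 5 keratinocyte (20%), 1 of 4 leukocyte (25%) and 1 of 4 endothelial genes (25%) were higher, beside the same 20.9%. The endothelial gene was KDR, at 6.88 with doxycycline and 5.70 in control. Of 4 epithelial genes 1 was lower (25%, beside 17.2% of all probe sets), KRT8, at 6.94 with doxycycline and 7.78 in control. KRT18, also epithelial, was bright in both groups, at 9.09 with doxycycline and 9.20 in control, and was not called. The part of these genes in the values of TXNIP and ARRDC3 was not tested. Leaving out each array in turn kept TXNIP between -3.33 and -3.03 and ARRDC3 between 1.80 and 1.90.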

How the data were processed

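RNA of 10 A375 samples was hybridised to 1 Clariom S array each, and the labels call the 5 arrays of a group biological replicas. Nothing says whether they came from separate cultures, so a p-value here reflects only how these samples vary, which may be technical. The deposited log2 values for 18569 probe sets were made with RMA, per the submitters' processing notes. For RMA the version, library file and filters were not given in the sources used here. Values ran from 1.14 to 12.9 with medians of 5.02 to 5.10, so RMA fold changes are relative to the other genes of an array. The platform annotation gave 17511 probe sets 1 symbol, and the 1058 without a single symbol were left unnamed here. For a gene with several probe sets the brightest was used.

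Doxycycline was compared with control with limma 3.58.1 (functions lmFit and eBayes, R 4.3.3), without a filter, two-sided, with Benjamini-Hochberg adjustment over all probe sets and a threshold of 0.05. The fit was tested on simulated data. The 7 genes and the lists were chosen with earlier results of these data known. The text names all 7 genes, up to 4 called genes per list by size of change, every gene of a list of at most 5 and the 3 closest profiles. Genes named beyond that were chosen after their values were seen, among them USF2, MAP3K5, ARRDC1, ITCH, WWP1, PFKFB3, ACACA, ACACB, PNPLA3, SCD, ACLY, the cell type markers and the genes with the pair of cores. Listed genes without a match to the annotation were not analysed here. Promoters came from RefSeq for GRCh38.p14. Tables and plots were made with pandas 2.3.3 and matplotlib 3.10.9. Alternatives were a replicate block, other scalings, filters, weights and leaving out each array. A comparison of protein sequences was planned and not made.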

Additional observations from a re-analysis of the deposited data

Results flagged for a closer look

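Among 154 groups of 5 arrays, from 77 of the genes named in the text, 6 had an array far from the others. By chance about 1 in 20 such groups would be marked. The genes beside the 7 on the chromosomes were not screened. ITCH was 7.74 on doxycycline array 1, against 8.60 to 8.62 on the other doxycycline arrays. On doxycycline array 4, GFPT1 was 9.55, against 9.34 to 9.40 on the others, and GPR143 was 1.58, against 1.92 to 2.02. SMURF2 was 8.24 on control array 1, against 8.46 to 8.54 on the other control arrays. PDGFRA was 3.91 on control array 1, against 4.58 to 4.80 on the others. EEF1A2 was 6.83 on control array 4, against 6.93 to 6.97 on the others.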

How the results depend on the processing

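Under 17 alternatives the log2 fold changes of the 7 genes moved by less than the SD between arrays, from -3.33 to -3.03 for TXNIP, 1.80 to 1.90 for ARRDC3, -0.77 to -0.60 for ARRDC2 and -0.64 to -0.43 for MLXIP. MLXIP and MLXIPL were dropped by the filter at the median signal and had 16 alternatives. The number of the 7 past the threshold was 3 to 5, since ARRDC4 passed without doxycycline replicate 4. All probe sets called numbered 5586 to 7696, and called list genes 40 to 49. Of 557 values of the 33 list genes named by size of change or as members of short lists, 533 kept direction and side of the threshold. The 23 that lost the call belonged to MXD1, YWHAH and VPS26C, and MNT was -0.0018 without doxycycline replicate 5 (-0.0018 to 0.12 over all left-out arrays). Counts of single lists moved by over 1.5 times in 36 of 510 cases, 35 of them with a count of at most 4. The number of arrays and dim signals limit small differences. With the replicate number as a block, TXNIP stayed at -3.18 and ARRDC3 at 1.85, and 6476 probe sets were called. Of the 33 list genes, YWHAH lost its call with the block (limma adjusted p = 0.0769). Arrays of the same number did not deviate together (r from -0.44 to -0.0075). These values show no sign of pairing by number and cannot exclude it.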

Other observations

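The nearest measured protein-coding genes on either side of the 7 genes, in RefSeq gene order, were listed after the values were seen. Next to TXNIP, POLR3GL, a subunit of RNA polymerase III, was 4.90 with doxycycline and 4.61 in control, a difference of 0.29 ± 0.10 (limma adjusted p = 0.0280). On its other side HJV, a bone morphogenetic protein coreceptor, rose by 0.27 ± 0.08 at a dim signal of 1.89 with doxycycline and 1.62 in control. Next to ARRDC3, ADGRV1 differed by -0.01 ± 0.14 and NR2F1 by -0.0049 ± 0.11. Both genes beside ARRDC4 were higher, MCTP2 by 1.49 ± 0.12 (limma adjusted p = 1.64e-07) and the growth factor receptor IGF1R by 0.73 ± 0.09 (limma adjusted p = 9.63e-06). Beside MLX, PSMC3IP, a recombination factor, was 4.85 with doxycycline and 6.32 in control, at -1.47 ± 0.08 (limma adjusted p = 2.42e-09). On the other side of MLX, COASY differed by -0.26 ± 0.09. The genes beside MLXIP were BCL7A (-0.57 ± 0.10) and LRRC43 (0.18 ± 0.13). Those beside MLXIPL were TBL2 (-0.42 ± 0.11) and VPS37D (0.11 ± 0.12). For ARRDC2 the neighbours were KCNN1 (0.11 ± 0.10) and IL12RB1 (0.53 ± 0.17).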
